A study of Mus musculus with 12 samples.

Results

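RNA of a fraction enriched for wild type (WT) retinal ganglion cells (RGCs) was compared with RNA of the remaining retinal cells (non-RGCs) of the same stage. This gives the genes whose levels differ between these fractions of the newborn mouse retina. Below, RGCs and non-RGCs stand for the fractions, which also hold other cells. The comparison used 6 of the 12 libraries of the series, 3 of WT RGCs and 3 of WT non-RGCs, and the 15750 of 38720 listed genes that had a mean of at least 10 normalized read counts in either fraction. All 6 libraries came from retinas of C57/BL6 pups labelled wild type and taken at P0, the day of birth. The retinas were dissociated with papain, and cells that bound magnetic beads carrying an antibody to CD90, the Thy-1 protein, formed the RGC fraction while the remaining cells formed the non-RGC fraction. The labels and the study's RNA-seq methods both call these pups wild type, while its general methods name littermates with 2 floxed Ezh2 alleles as the default controls, and neither the number of pups in a pool nor the pairing of fractions from the same retinas was stated. The other 6 libraries came from the same fractions of Math5-Cre+;Ezh2f/f pups (mKO), and they were used only for the comparison of genotypes near the end. In these pups Cre driven by the Math5 promoter removes Ezh2 from cells of the RGC lineage. The paper states that the deletion reaches only part of the RGCs.

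RGCs are the output neurons of the retina: they are the first retinal neurons to be born, extend axons through the optic nerve to the brain, and excite their targets with glutamate. Transcription factors of the Pou4f, Isl, Ebf and Irx families act in their specification and subtype choice. At birth the rest of the retina is made of dividing progenitors, newly born photoreceptors and amacrine and horizontal cells, and RGCs are known to signal to the progenitors by secreted factors, Sonic hedgehog among them.

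The deposited tables hold 1 mean per group, so the reads of each library were recovered from the digits of those means. Within each group the libraries are named A to C in the order of their depth, which is not the numbering of the labels. The same letter in different groups does not mark matched libraries. Reads on genes were 10600964 to 12328717 in the RGC libraries and 11100177 to 12157900 in the non-RGC libraries. The table of RGCs and that of non-RGCs were normalized apart by the authors, so non-RGC values were multiplied by 1.00131, the median ratio over 11939 well expressed genes, and every value below is a normalized read count on this common scale. In each fraction, libraries A and B resembled each other most, with a Spearman correlation across genes of 0.994 in RGCs and 0.994 in non-RGCs. RGC library C lay nearer to the non-RGC libraries (0.93 to 0.94) than A and B did (0.881 to 0.9), and non-RGC library C lay apart from the other non-RGC libraries (0.978 to 0.98). The called genes of each list were also counted without each library in turn, and the larger shifts stand beside the results.

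A gene was called when its Benjamini-Hochberg adjusted p in limma was under 0.05 and its fold change at least 1.5. In WT RGCs, 3530 genes were higher than in WT non-RGCs, 22.4% of those tested, and 1574 genes were lower, 9.99% of those tested. The counts of each gene list below are to be read beside these shares. The rises reached much further than the falls: with 267 genes that had no more than 3 reads in any non-RGC library set at their lowest possible fold, 1372 genes were higher by at least 4-fold and 633 by at least 8-fold, against 7 genes lower by at least 4-fold and 0 by at least 8-fold. Of the called genes 69.2% were higher in RGCs. Scaling each library by its total reads instead, which moves the median of all genes by -0.16 on the log2 scale, gave 2947 higher and 2389 lower genes, or 55.2% higher. Without RGC library A the lower genes numbered 876 and without RGC library B 993, against 2029 without RGC library C. The p-values measure the spread between libraries from separate RNA extractions, and in these bulk samples fewer cells of a type and less RNA per cell cannot be told apart.

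**Figure D1:**
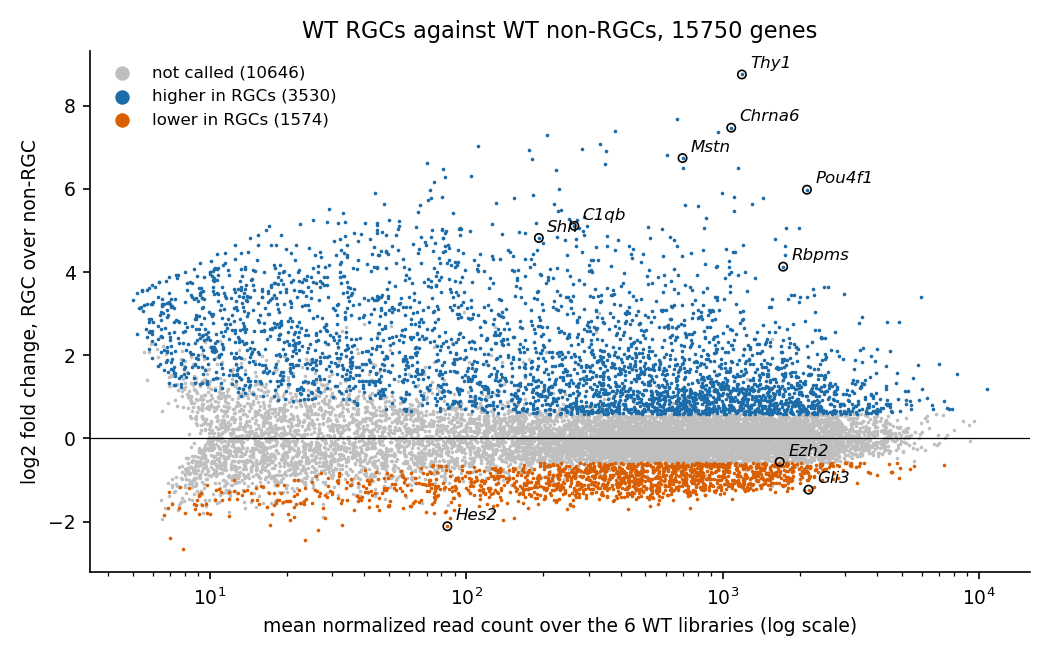
Each point is 1 of the 15750 genes, with its mean normalized read count over the 6 WT libraries on a log x axis and its log2 fold change of RGC over non-RGC on the y axis; blue points were called higher and orange points lower in RGCs. The 3530 blue points reach up to 8.75, at Thy1, while the 1574 orange points end at -2.65.

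The 5 RGC markers were all called higher in RGCs, with log2 fold changes of 4.13 to 8.75. Thy1, which encodes the antigen used for the capture and so was selected for, was read at 2394, 2519 and 2208 in the RGC libraries and at 4.52, 1.94 and 9.40 in the non-RGC libraries (449-fold; log2 fold change 8.75 ± 0.42 SE, adjusted p = 1.27e-05). The markers that the beads did not select by were separated by less, and again without any overlap of the fractions. Pou4f3, a POU homeobox factor of RGC differentiation, stood at 1459, 1406 and 1086 against 5.42, 0.97 and 19.8 (log2 fold change 7.67 ± 0.74, adjusted p = 0.000204). Pou4f1 stood at 4178, 4334 and 4067 against 47.9, 42.6 and 136 (5.98 ± 0.39), and Pou4f2 at 2960, 3047 and 2446 against 47.9, 35.9 and 72.0 (5.79 ± 0.24). Rbpms, an RNA-binding protein found in RGCs, was read at 3316, 3454 and 3004 against 166, 147 and 259 (4.13 ± 0.20). In each of these genes but Rbpms the RGC mean was over 50 times the non-RGC mean, and in all 5 non-RGC library C held more than libraries A and B did. Per kilobase of exon the order of the RGC means was Pou4f1 (897 normalized read counts), Pou4f2 (879), Thy1 (793), Pou4f3 (549) and Rbpms (497). Summed over the 5 markers, the level in non-RGCs was 2.38% of that in RGCs. On the GRCm38 assembly the markers lie at chromosome 9, 44043384 to 44048579 (Thy1), chromosome 14, 104461676 to 104467999 (Pou4f1), chromosome 8, 78433010 to 78436645 (Pou4f2) and chromosome 8, 33782643 to 33929863 (Rbpms).

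**Figure D2:**
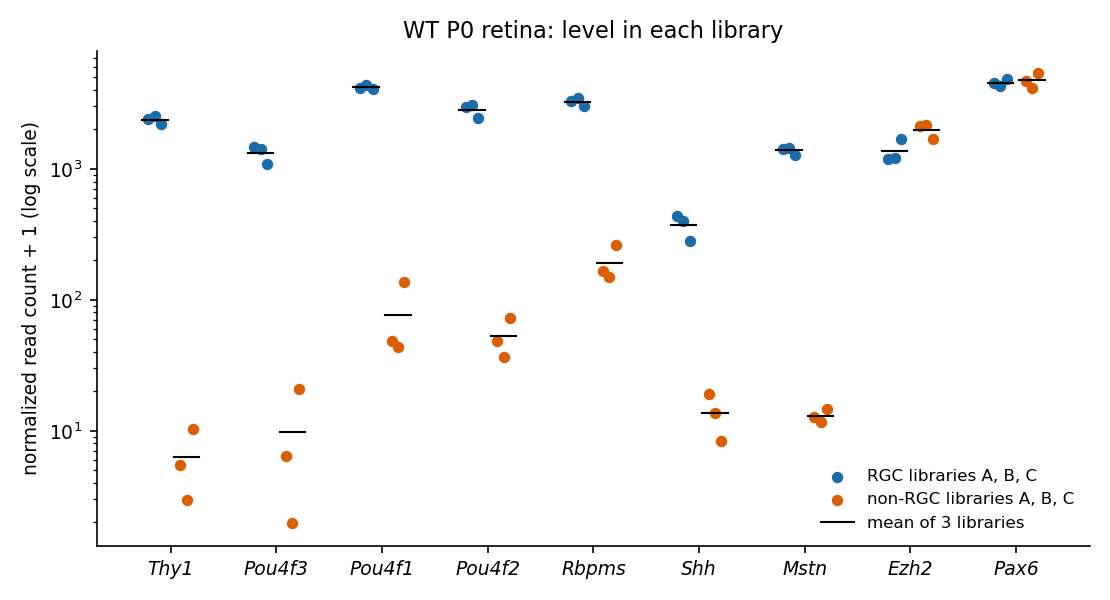
Normalized read count plus 1 on a log axis for 9 genes in each WT library, with RGC libraries in blue, non-RGC libraries in orange and the mean of 3 libraries as a bar. The RGC markers, Shh and Mstn are separated between the fractions, Ezh2 is somewhat lower in RGCs, and the Pax6 libraries of the fractions overlap.

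The 10 genes with the largest rises, among called genes with a mean of at least 50 and no overlap of the fractions, were Thy1, Pou4f3, Chrna6, RP24-312G4.2, Irx4, Ahnak2, Tusc5, Ppp1r1c, Adcyap1 and Htr5a. Chrna6, a subunit of nicotinic acetylcholine receptors, was read at 2343, 2329 and 1774 in RGCs and at 17.2, 17.4 and 4.18 in non-RGCs (log2 fold change 7.47 ± 0.48). Adcyap1, which encodes the neuropeptide PACAP, stood at 651, 600 and 432 against 6.32, 1.94 and 3.13 (6.95 ± 0.38). Htr5a, a serotonin receptor, stood at 401, 390 and 257 against 3.61, 3.88 and 0 (6.93 ± 0.62). In each of these 3 genes RGC library C was the lowest of its fraction, as it was in all 10. The non-RGC values rest on few reads, at most 17.4 normalized counts in Chrna6 and 4, 0 and 0 reads in Ppp1r1c, so the size of these folds is uncertain.

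Among called genes chosen by the same rule, the 10 largest falls were Hes2, Nup62cl, Dio3, Fzd10, Hmga2, Gbx2, Tmem215, Slc6a2, Usp44 and Dio3os, and they were far smaller, from -2.11 to -1.73 on the log2 scale. Hes2, a Hairy and enhancer of split family gene, was read at 16.2, 21.7 and 66.5 in RGCs and at 94.9, 111 and 196 in non-RGCs (log2 fold change -2.11 ± 0.54, adjusted p = 0.0155). Fzd10, a Frizzled receptor for Wnt ligands, stood at 42.6, 52.1 and 95.7 against 156, 200 and 374 (-1.91 ± 0.41). Hmga2, a chromatin protein of immature cells, stood at 26.4, 19.5 and 63.0 against 84.0, 95.9 and 229 (-1.91 ± 0.53). Library C was the highest of its fraction in all 3, in RGCs as well as in non-RGCs. Dio3 (-1.96) and Dio3os (-1.73) are antisense neighbours, and without a stated strand setting their reads cannot be told apart. The calls of Hes2, Hmga2 and Nup62cl were lost without RGC library A or B, that of Hmga2 also without non-RGC library C, and that of Dio3os without RGC library A.

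Among 30 transcription factors of RGC development, 21 were higher in RGCs and 0 lower (median log2 fold change 2.49, against 0.05 over all genes tested). Without RGC library C 3 of the 30 were called lower, and 2 were when scaled by total reads. Besides the 3 Pou4f genes, the called factors included Irx4 (7.36), Irx2 (5.62), Irx1 (5.50), Ebf1 (5.07), Tbr1 (4.90), Tbx20 (4.44), Ebf3 (3.64), Myt1l (3.60), Irx6 (3.33), Ebf2 (3.05), Isl2 (2.86), Irx3 (2.11), Foxp2 (1.93), Klf7 (1.73), Isl1 (1.63), Eomes (1.51) and Foxp1 (0.67), with log2 fold changes in parentheses. Irx4, an Iroquois homeobox gene, was read at 2096, 2001 and 1637 in RGCs and at 13.6, 5.81 and 14.6 in non-RGCs. Eomes, Tbr1 and Foxp2 are factors of RGC subtypes, and they were called in the same direction as the general factors. Among the factors that were not called, Sox4, a SoxC gene of early neurons, stood at 3179, 3306 and 3642 against 2963, 3147 and 3588 (0.06 ± 0.10, and -0.09 when scaled by total reads), and Satb1 at 2962, 3060 and 2662 against 1818, 1791 and 2221 (0.58 ± 0.11), just under the 1.5-fold limit. The lowest member was Dlx1, a homeobox gene of amacrine and horizontal precursors, named after its values were seen, at 50.7, 53.2 and 110 against 125, 105 and 293 (-1.22 ± 0.46, adjusted p = 0.063). Atoh7, the Math5 gene of progenitors about to become RGCs, was named after its values were seen and stood at 81.1, 84.7 and 293 in RGCs and 239, 224 and 260 in non-RGCs (-0.92 ± 0.46, adjusted p = 0.143). RGC library C alone accounted for that overlap, since libraries A and B lay below all non-RGC libraries.

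Genes of the neuronal axon were higher in RGCs almost throughout. Of 28 genes of neurofilaments and the axonal cytoskeleton, 24 were higher and 0 lower (median 1.17). Nefl, the light neurofilament chain, was read at 3263, 3414 and 3152 against 344, 355 and 261 (log2 fold change 3.36 ± 0.13, adjusted p = 6.37e-06), Nefm at 4776, 4831 and 4418 against 834, 878 and 693 (2.55 ± 0.11), and Nefh at 630, 636 and 363 against 100, 102 and 52.2 (2.68 ± 0.33). Sncg, gamma-synuclein, had the largest rise of the list at 1275, 1332 and 1378 against 108, 89.1 and 108 (3.70 ± 0.13). Smaller differences were measured in Basp1, a protein of growing neurites (3108, 3279 and 3388 against 2312, 2459 and 2510; 0.42 ± 0.08), and in the neuronal tubulin Tubb3 (2999, 3200 and 3325 against 1894, 2054 and 2228; 0.63 ± 0.09), which was named after its values were seen and whose call was lost when scaled by total reads or by joint size factors, or without non-RGC library A.

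Axon guidance and adhesion genes were mixed: of 44, 18 were higher and 3 lower (median 0.43), the share lower being under the 9.99% of all genes. Chl1, an adhesion molecule of the L1 family, rose most, from 49.7, 48.5 and 41.8 in non-RGCs to 2481, 2558 and 1475 in RGCs (log2 fold change 5.47 ± 0.23). Its relatives L1cam (6609, 6712 and 5135 against 1024, 962 and 521; 2.93 ± 0.25) and Cntn2 (1969, 1916 and 1327 against 114, 152 and 237; 3.41 ± 0.28) were higher as well. The secreted semaphorin Sema3e stood at 1331, 1252 and 854 against 103, 108 and 176 (3.16 ± 0.25). The 3 genes lower in RGCs were the receptors Epha3 (-1.26), Robo1 (-0.69) and Plxna4 (-0.67), the call of Plxna4 being lost without any library but RGC library B. Epha3 stood at 292, 360 and 664 against 859, 957 and 1174, which again put RGC library C nearest to the non-RGCs.

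The machinery of excitability and transmitter release followed the axonal genes. Of 27 voltage-gated channel genes tested, 24 were higher and 0 lower (median 1.86). Kcnd2, a potassium channel, stood at 1428, 1467 and 857 against 38.9, 44.6 and 49.1 (log2 fold change 4.76 ± 0.24), and the sodium channel gene Scn2a1 at 2569, 2877 and 1468 against 167, 152 and 101 (4.0 ± 0.29). Of 28 genes of synaptic release, 20 were higher and 2 lower (median 1.04). Slc17a6, the vesicular glutamate transporter used by RGCs, was read at 2793, 2851 and 1992 against 50.6, 41.7 and 57.4 (5.64 ± 0.19), whereas Slc17a7, the transporter of photoreceptors and bipolar cells, was read at 266, 293 and 354 against 736, 933 and 332 (-1.01 ± 0.35, adjusted p = 0.0497). The Slc17a6 fractions stood far apart, while those of Slc17a7 overlapped at non-RGC library C and its call was lost without any of 5 of the 6 libraries. The calcium sensor Doc2b was the other gene lower in RGCs (-1.25).

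Receptors for acetylcholine and glutamate gave 16 higher and 1 lower gene of 22 (median 1.23). The nicotinic subunit Chrnb3 stood at 2518, 2464 and 1831 against 34.3, 25.2 and 15.7 (log2 fold change 6.50 ± 0.28), next to Chrna6 above, while Chrnb4, another nicotinic subunit, was the gene lower in RGCs at 458, 419 and 556 against 644, 773 and 1035 (-0.76 ± 0.19). The call of Chrnb4 was lost without RGC library A or B or non-RGC library C. The subunits Chrna6 and Chrnb3 were over 90 times as high in RGCs, and all 5 tested subunits of NMDA-type glutamate receptors were called higher, namely Grin3a (5.08), Grin2d (3.78), Grin2a (3.63), Grin2b (2.94) and Grin1 (2.84). Grin3a stood at 1204, 1212 and 579 against 30.7, 29.1 and 21.9.

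**Figure D3:**
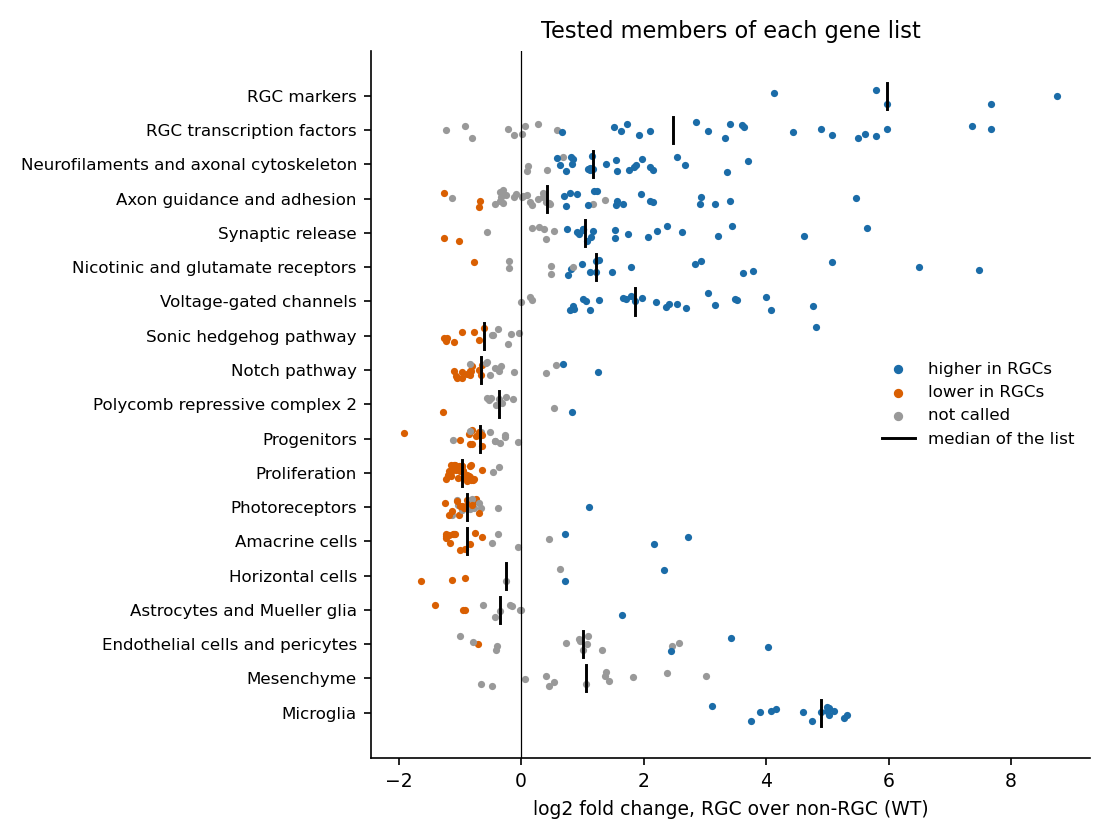
Log2 fold change of RGC over non-RGC on the x axis for each tested member of 19 gene lists, 1 row per list, with the median as a bar and called members in blue (higher in RGCs) or orange (lower). The 15 microglial genes and the medians of the neuronal lists lie to the right of 0, with single neuronal genes down to -1.26, while the progenitor, proliferation, photoreceptor and amacrine lists lie mostly between -1.9 and 0.

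The ligand Sonic hedgehog and its pathway went opposite ways. Shh (chromosome 5, 28456815 to 28467256) was read at 435, 401 and 278 in RGCs and at 18.1, 12.6 and 7.31 in non-RGCs (29.3-fold; log2 fold change 4.82 ± 0.35, adjusted p = 6.31e-05). Of the 15 genes of the pathway it was the only one higher, and 8 were lower (median -0.61). These were the transcription factors Gli2 (-1.25), Gli3 (-1.23) and Gli1 (-1.10), the inhibitor Hhip (-1.21), the signal transducer Smo (-0.96), the receptor Ptch1 (-0.76) and the coreceptors Cdon (-0.68) and Gas1 (-0.61). Gli3 stood at 1091, 1152 and 1664 against 2786, 2583 and 3719, and Gli1, itself induced by the pathway, at 602, 562 and 1437 against 1952, 1364 and 1792. The fractions were apart for Gli3 and met at RGC library C for Gli1, whose call was lost without any single library but RGC library C and non-RGC library B. The call of Gas1 was lost without any single library but RGC library C. The other members, with Sufu at -0.48 the lowest, were not called.

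Of 25 Notch pathway genes 13 were lower in RGCs and 2 higher (median -0.65). The ligand Jag2 (1709, 1542 and 1200 against 609, 529 and 717; log2 fold change 1.26 ± 0.16) and the glycosyltransferase Rfng (0.69, lost when scaled by total reads) were the higher ones. The receptor Notch1 stood at 4883, 5322 and 6995 against 8481, 8387 and 9630 (-0.64 ± 0.14), the receptor Notch2 at -1.09, the ligand Dll4 at -1.07, and the targets Hey2 and Hes1 at -1.05 and -0.80. In these 5 genes, all taken from those called lower, every RGC library was below every non-RGC library, as in 22.6% of all genes. The calls of Hey2 and Dll4 were each lost without any of 4 libraries and that of Notch1 without RGC library A or non-RGC library C. The number of lower genes was 4 without RGC library A and 8 without RGC library B, and 8 also without non-RGC library B. Of 20 tested factors that RGCs secrete or respond to and their receptors, 8 were higher and 4 lower, and without RGC library A 2 were lower. Mstn, a TGF-beta family ligand, stood out at 1428, 1443 and 1281 against 11.7, 10.7 and 13.6 (6.74 ± 0.18, adjusted p = 4.42e-06). Its receptor gene Acvr2b was lower (-0.64), as were Kdr, a receptor for VEGF (-0.71), Fgf15 (-1.0) and Gfra1, a coreceptor for GDNF (-1.46). The call of Fgf15 was lost without any library but RGC library C, and that of Acvr2b without RGC library A or B or non-RGC library C. The neurotrophin Bdnf (2.43), its receptor Ntrk2 (2.27) and the growth factor Pdgfa (2.37) were higher in RGCs.

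Ezh2, the methyltransferase of Polycomb repressive complex 2 and the gene targeted in the mKO mice, was read at 1190, 1206 and 1678 in WT RGCs and at 2118, 2152 and 1685 in WT non-RGCs (log2 fold change -0.56 ± 0.16, adjusted p = 0.0247). Every RGC library was below every non-RGC library, as in 22.6% of all genes. The highest RGC library, at 1678, was almost level with the lowest non-RGC library, at 1685, and the change fell short of 1.5-fold. Of the 11 genes of the complex 1 was higher, Phf1 (0.83), and 1 lower, Phf19 (-1.28), both accessory subunits (median -0.36). The share higher was under the 22.4% of all genes, and the share lower was near the 9.99% of all genes. The core subunits Suz12 and Eed stood at -0.49 and -0.52, and Ezh1, the related methyltransferase of nondividing cells, at 1001, 949 and 801 against 723, 568 and 618 (0.53 ± 0.13), also under 1.5-fold. Scaled by total reads, Ezh2 (-0.71), Suz12 (-0.65) and Eed (-0.67) passed the limit and the lower genes numbered 4 of 11, as they did without RGC library C. The call of Phf1 was lost without 5 of the 6 libraries.

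Genes of dividing cells were the most uniform group lower in RGCs. Of 35 proliferation genes 33 were lower and 0 higher (median -0.97), within a narrow band from -1.22 to -0.36. Bub1, a kinase of the spindle checkpoint, stood at 329, 373 and 657 against 1021, 1001 and 1014 (log2 fold change -1.22 ± 0.24), and the spindle motor Kif11 at 906, 912 and 1684 against 2403, 2399 and 2861 (-1.19 ± 0.23). Aurka, another mitotic kinase, stood at 275, 282 and 494 against 740, 759 and 789 (-1.18 ± 0.22). RGC library C lay well above libraries A and B in these 3 genes and still under all non-RGC libraries. The summed level of the list in RGCs was 53.7% of that in non-RGCs, so transcripts of dividing cells were common in the bead-bound fraction too. Without RGC library A the lower genes numbered 22 and without RGC library B 23.

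Promoters of proliferation genes often carry sites for E2F factors, which switch on genes of DNA replication. In the RefSeq table of promoters (250 bases before to 50 after a start, 300 in all), the letters TTTCCCGC or TTTGGCGC on either strand were found in 5.54% of the promoters of the genes lower in RGCs, in 1.04% of those of the genes higher in RGCs, in 2.61% of those of all genes tested and in 1.56% of all promoters. They were found in 5 of 31 promoters of the proliferation list (16.1%), those of Cdk2, Mcm3, Mcm5, Mcm6 and Mcm7, which are named for these letters. All of these genes were called lower, but so were 33 of the 35 genes of the list, so their shared direction says nothing of the letters. The 4 promoters of subunits of the MCM helicase, which unwinds DNA at replication forks, are shown because the same letters recur at different places in them. They are printed from 5′ to 3′ on the strand of the gene, from RefSeq on GRCm38.p6, with the matched letters in capitals; Mcm3 (chr1:20820263-20820562, minus strand) and Mcm6 (chr1:128359656-128359955, minus strand) have 2 matches, and Mcm5 (chr8:75109259-75109558, plus strand) and Mcm7 (chr5:138171834-138172133, minus strand) have 1.
Mcm3: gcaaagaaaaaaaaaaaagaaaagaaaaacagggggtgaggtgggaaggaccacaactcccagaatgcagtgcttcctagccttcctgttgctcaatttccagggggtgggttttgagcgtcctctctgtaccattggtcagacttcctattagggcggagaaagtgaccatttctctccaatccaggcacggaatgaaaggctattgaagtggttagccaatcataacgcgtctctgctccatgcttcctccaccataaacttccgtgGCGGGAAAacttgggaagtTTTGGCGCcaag
Mcm6: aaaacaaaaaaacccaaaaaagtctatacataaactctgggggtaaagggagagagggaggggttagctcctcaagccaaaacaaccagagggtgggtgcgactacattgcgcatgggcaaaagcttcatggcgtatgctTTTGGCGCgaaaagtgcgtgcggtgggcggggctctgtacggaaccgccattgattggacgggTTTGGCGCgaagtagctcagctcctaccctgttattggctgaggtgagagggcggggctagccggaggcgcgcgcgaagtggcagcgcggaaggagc
Mcm5: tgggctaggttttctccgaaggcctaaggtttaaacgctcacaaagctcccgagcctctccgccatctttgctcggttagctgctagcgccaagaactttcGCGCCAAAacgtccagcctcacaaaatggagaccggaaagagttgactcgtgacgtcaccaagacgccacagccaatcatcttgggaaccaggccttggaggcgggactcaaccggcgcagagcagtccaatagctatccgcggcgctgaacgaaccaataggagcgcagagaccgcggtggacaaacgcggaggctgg
Mcm7: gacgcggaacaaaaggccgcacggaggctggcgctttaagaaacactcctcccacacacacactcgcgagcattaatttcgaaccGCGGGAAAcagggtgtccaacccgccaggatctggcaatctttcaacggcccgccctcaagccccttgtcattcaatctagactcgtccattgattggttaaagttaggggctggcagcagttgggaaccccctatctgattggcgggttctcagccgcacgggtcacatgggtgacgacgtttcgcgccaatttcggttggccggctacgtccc
The log2 fold changes of these genes were -1.08 (Mcm3), -0.83 (Mcm6), -0.89 (Mcm5) and -0.64 (Mcm7). The call of Mcm7 was lost without RGC library A or B or non-RGC library C. The letters ATAATTAAT, which Pou4f factors can bind, were in 6 promoters of higher genes (0.178%) and 1 of lower genes (0.0692%). They were in 0.104% of the promoters of tested genes and 0.274% of all promoters. The letters CTAATCC, of Crx, were in 1.63% of the promoters of higher genes and 2.49% of those of lower genes. They were in 2.01% of those of tested genes and 2.05% of all promoters. These are counts of letters and say nothing of binding.

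The markers of the other retinal cells were lower in RGCs without being lost from them: the summed level in RGCs was 70.4% of that in non-RGCs for progenitors, 58.3% for photoreceptors and 78.5% for amacrine cells. Of 20 progenitor genes 10 were lower and 0 higher (median -0.67). Sfrp2, a secreted Wnt antagonist of progenitors, stood at 364, 440 and 705 against 698, 786 and 1215 (log2 fold change -0.85 ± 0.28), and the cyclin Ccnd1 at 3413, 3538 and 5200 against 4376, 4645 and 5386 (-0.27 ± 0.17). Both overlapped between the fractions at RGC library C, and the call of Sfrp2 was lost without any of 4 libraries. Pax6, a homeobox gene of progenitors that amacrine cells and RGCs keep, stood at 4492, 4298 and 4866 against 4709, 4147 and 5372 (-0.05 ± 0.11). The number of lower progenitor genes was 1 without RGC library A, 2 without RGC library B and 14 without RGC library C, and between 5 and 7 without a non-RGC library.

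Of 25 photoreceptor genes 14 were lower and 1, Rxrg, was higher (median -0.89). Rp1, a protein of the photoreceptor axoneme, stood at 583, 677 and 914 against 1796, 2136 and 1242 (log2 fold change -1.24 ± 0.23), and Aipl1, a chaperone for the phosphodiesterase, at 201, 191 and 326 against 585, 662 and 373 (-1.17 ± 0.28). Non-RGC library C was the lowest of its fraction in both, and without it 23 of the 25 were lower. Rxrg, a retinoid receptor of cones that RGCs also express, stood at 989, 864 and 908 against 393, 447 and 435 (1.11 ± 0.11).

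Amacrine genes split by gene: 13 of 20 were lower and 3 higher (median -0.88), the share higher being under the 22.4% of all genes. Gad1, which makes the inhibitory transmitter GABA, stood at 566, 595 and 610 against 1380, 1493 and 1279 (log2 fold change -1.23 ± 0.10), and the engulfment receptor Megf10 at 667, 818 and 871 against 1746, 1833 and 1928 (-1.23 ± 0.12). The higher genes were Calb2, calretinin (2412, 2546 and 2538 against 398, 416 and 320; 2.73 ± 0.12), the choline transporter Slc5a7 (2.17, lost without RGC library A or B) and the factor Barhl2 (0.71, lost when scaled by total reads); RGCs are known to express Calb2 and Barhl2 as well. Of 7 horizontal cell genes tested, Calb1 (2.34) and Onecut3 (0.72) were higher and Lhx1 (-1.63), Prox1 (-1.13) and Tfap2a (-0.92) lower, and the call of Onecut3 was lost without any library but the C libraries. Of 11 tested genes of astrocytes and Mueller glia, Clu (1.64) was higher and Kcnj10 (-1.40), Pax2 (-0.94) and Slc1a3 (-0.91) lower.

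Microglial genes rose with the RGC fraction. All 15 were higher in RGCs, without overlap, by 3.12 to 5.32 on the log2 scale (median 4.89), where 34.3% of all genes had every RGC library above every non-RGC library. The summed level of the list was 4034, 5702 and 6130 in RGCs and 447, 410 and 40.7 in non-RGCs, or 17.7-fold higher, and RGC library C held the most and non-RGC library C the least. C1qb, a subunit of complement C1q, was read at 359, 502 and 649 against 44.3, 30.0 and 1.04 (log2 fold change 5.11 ± 1.05, adjusted p = 0.00648), and Trem2, a receptor of microglia, at 144, 185 and 218 against 13.6, 10.7 and 0 (5.03 ± 0.94). The defining markers of microglia were thus well above 0 in the bead-bound fraction, and their part in the other genes called higher in RGCs was not tested. Without RGC library C 14 of the 15 were called, C1qc being lost.

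T cells of the mouse also carry Thy-1, and their defining genes were nearly absent: Cd3e, Cd3d, Cd3g, Cd2 and Trac had no more than 3 reads in any WT library. Of the other 5 genes of that list, Lck, a tyrosine kinase, was higher (201, 176 and 166 against 15.4, 14.5 and 14.6; log2 fold change 3.52 ± 0.23) and Cd8a lower (-2.08) on at most 32 reads. Of 17 genes of endothelial cells and pericytes, 3 were higher, which is under the 22.4% of all genes, 1 was lower and 13 were not called. The median log2 fold change of the 17 was 1.01, while their summed level in RGCs was 75.4% of that in non-RGCs. The higher ones were the pericyte genes Kcnj8 (4.03), Abcc9 (3.42) and Rgs5 (2.45), the lower one was Kdr, and the pericyte receptor Pdgfrb was not called (-0.41). Abcc9 stood at 71.0, 147 and 26.8 against 5.42, 17.4 and 1.04, with library B the highest in both fractions. The call of Abcc9 was lost without RGC library A or B, and that of Rgs5 without RGC library A or B or non-RGC library A or C. Of 13 mesenchymal genes limma called 0, as did limma with voom weights, and 1 had an unadjusted p under 0.05. Their summed level was 8526, 22612 and 2969 in RGCs and 3737, 10830 and 3894 in non-RGCs, and Col1a1, a collagen, stood at 1701, 5584 and 74.7 against 289, 2578 and 54.3.

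**Figure D4:**
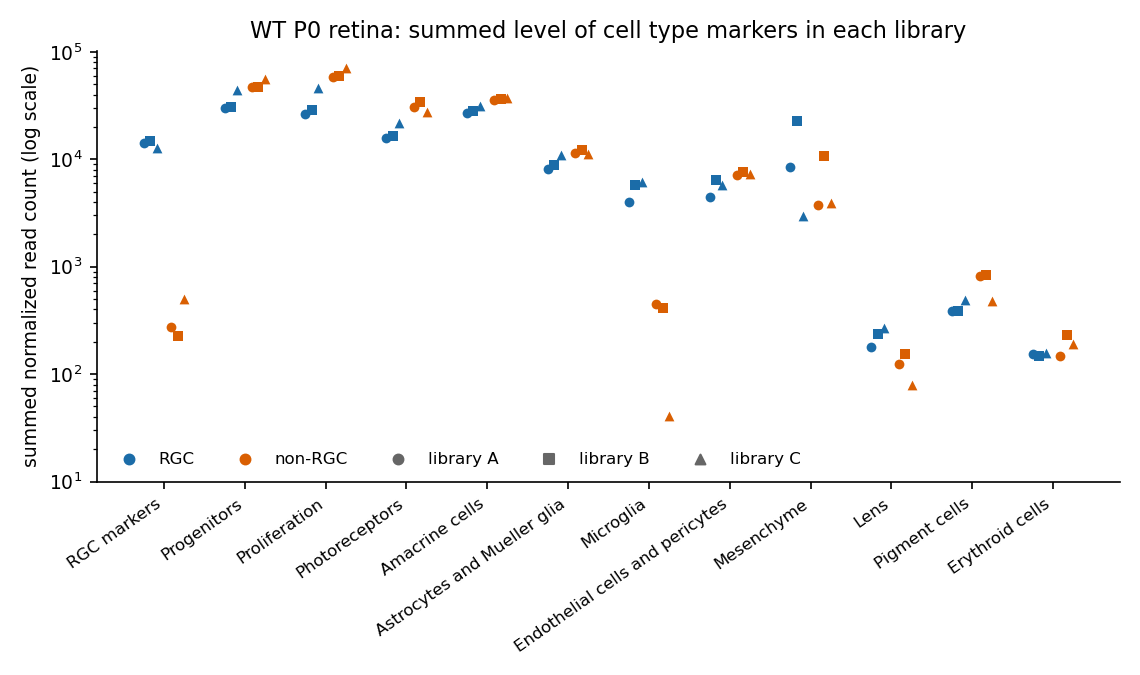
Summed normalized read count of the markers of each cell type in each WT library, on a log axis, with RGC libraries in blue and non-RGC libraries in orange and the library letter as the symbol. The RGC and microglial sums lie far apart between the fractions. The progenitor, proliferation, photoreceptor, amacrine and glial sums do not overlap either. They are lower in RGCs, by less than 2-fold on average. The mesenchymal sum is highest in library B of both fractions.

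The same comparison in mKO mice shares no library with that in WT mice. In the libraries labelled mKO, 4318 of 16342 genes were higher in RGCs (26.4%) and 2235 were lower (13.7%). Of 3487 genes higher in WT RGCs and tested in mKO, 3141 (90.1%) were higher and 0 lower in mKO RGCs, and these make up 72.7% of the genes higher in mKO. Of 1561 genes lower in WT RGCs and tested in mKO, 1144 (73.3%) were lower and 0 higher, or 51.2% of the genes lower in mKO. Counts over the whole Ezh2 gene did not check the genotype labels. The mean was not lower in mKO RGCs (1354, 1476 and 1443, mean 1424) than in WT RGCs (1190, 1206 and 1678, mean 1358). In non-RGCs it was 2171 in mKO (1892, 2110 and 2513) and 1985 in WT. The paper reports lower Ezh2 in mKO RGCs by qPCR and Western blot, and a change in its RNA-seq. Such counts also hold exons outside the deleted part, and the paper states that only part of the RGCs carry the deletion. The bearing of either on these values was not tested.

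The difference between the fractions was larger in WT than in mKO for 16 of 16517 genes and smaller for 0 (0.0969% and 0% of those tested; limma contrast of the 2 differences, in which the scale between the tables cancels), and 1596 genes had an unadjusted p under 0.05. All 16 were higher in RGCs in both genotypes. Thy1 differed most, by 4.60 ± 0.46 on the log2 scale (adjusted p = 0.001), with 4.52, 1.94 and 9.40 in WT non-RGCs and 67.1, 79.7 and 93.3 in mKO non-RGCs, beside 2394, 2519 and 2208 in WT RGCs and 1425, 1426 and 1422 in mKO RGCs. Every mKO non-RGC library was above every WT non-RGC library in all 16 genes, and every WT RGC library was above every mKO RGC library in 12. The contrast had chosen the genes from these same values, and the share of all genes separated in this way was not counted. Ebf1, named after its values were seen, was not lower in mKO RGCs: it stood at 3602, 3581 and 3129 in WT RGCs and 3699, 3993 and 4072 in mKO RGCs, against 89.4, 102 and 114 in WT non-RGCs and 381, 470 and 426 in mKO non-RGCs (difference 1.86 ± 0.16). As a share of the RGC level, the non-RGC level rose from 0.223% to 5.62% for Thy1, from 1.84% to 8.18% for Pou4f2 and from 7.66% to 36.1% for Sncg. These genes are markers of RGCs that the contrast had chosen from these same values. The part that RGC transcripts in the mKO non-RGC fraction had in the difference was not tested. The markers Pou4f1 (2.17, adjusted p = 0.109), Pou4f3 (3.26, adjusted p = 0.283) and Rbpms (1.34, adjusted p = 0.0597) had differences of the same sign that did not pass. Without 1 library the number of called genes ran from 7, without mKO RGC library A, to 223, without mKO non-RGC library A.

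**Figure D5:**
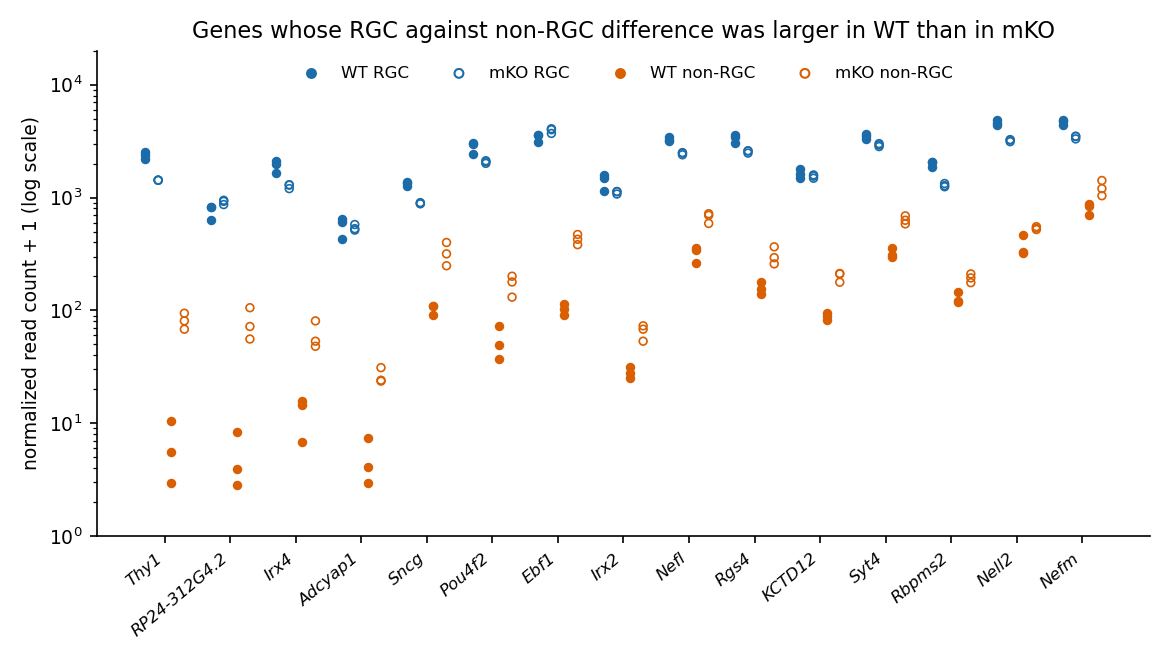
Normalized read count plus 1 on a log axis for 15 of the 16 genes whose RGC against non-RGC difference was larger in WT than in mKO, with 3 libraries per group; filled symbols are WT and open symbols mKO, blue RGC and orange non-RGC. The open orange symbols lie above the filled orange ones for all 15 genes, which the contrast had chosen from these same values.

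Long genes were more frequent among the called genes: a genomic span of at least 100 kb was found for 23.1% of the annotated genes higher in RGCs, 18% of those lower and 14.6% of all tested, with median spans of 29.1, 28.4 and 22.8 kb. Across 12447 genes the log2 fold change correlated with GC content at a Spearman rho of 0.12 and with span at 0.06, as a description of genes that share the same libraries. With the GC trend of each library removed, 93.4% of the genes called higher and 95.8% of those called lower were called again.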

How the data were processed

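Total RNA of P0 retinal fractions was made into poly(A) libraries and sequenced with single reads. The authors aligned the reads to mm10 with STAR (version 2.3.1z4 in the submitters' processing notes), assigned them to genes with featureCounts and normalized the counts with DESeq; each deposited signal value is the mean of the size-factor scaled counts of 1 gene over the 3 libraries of a group, and the authors made 1 table per fraction. The deposited values are labelled as made from primary alignments after removal of duplicates. The effect of that removal on the levels and folds of abundant genes was not tested. The other deposited columns hold the authors' comparison of WT with mKO and were not used.

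A mean of 3 libraries with 15 digits allows only certain whole numbers of reads. These were found for 100% of the genes with reads in WT RGCs and 99.98% in WT non-RGCs (5 genes had several solutions) and for 0 of 1000 control genes with a shifted step; the steps were also tested on simulated data. Reads were multiplied by the authors' scale, the non-RGC values also by 1.00131 (the median ratio of 11939 genes with both means at least 50), and log2(value + 1) was tested with limma 3.58.1 in R 4.3.3 with a trend, with a minimum mean of 10 in either fraction. A fold change on this scale understates that of genes with few reads, and ± is the standard error of the log2 fold change. With 3 libraries against 3, an exact permutation test cannot go below p = 0.1, so none was run. Genes were annotated with GENCODE M21 (GRCm38), which matched 94.4% of those tested.

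Named genes were the RGC markers, Ezh2 and its complex, the 10 largest called changes in each direction with a mean of at least 50 and no overlap, up to 4 called genes per direction and 2 others per list, all called hedgehog and Notch genes, and the 5 largest differences between genotypes; any other is said to have been named after its values were seen or stands in a full list. A few genes of the lists are not reported here. The comparison, the lists and the markers were chosen with earlier results of these data known. Alternatives were other scalings, pseudocounts of 0.5 and 5, other filters, voom weights, other fold limits, removal of the GC trend and leaving out each library.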

Additional observations from a re-analysis of the deposited data

Results flagged for a closer look

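A total of 16 genes stood out because their difference between RGCs and non-RGCs was itself different in WT and mKO mice, by the limma contrast of the 2 differences over 12 libraries. For 15 of them, on the log2 scale, the WT difference exceeded the mKO difference by 4.60 for Thy1, 3.78 for RP24-312G4.2, 2.95 for Irx4, 2.58 for Adcyap1, 2.21 for Sncg, 2.16 for Pou4f2, 1.86 for Ebf1, 1.51 for Irx2, 1.48 for Nefl, 1.33 for Rgs4, 1.24 for KCTD12, 1.24 for Syt4, 1.23 for Rbpms2, 1.07 for Nell2 and 1.05 for Nefm. In each of the 16 genes all mKO non-RGC libraries lay above all WT non-RGC libraries. The contrast had chosen the genes from these same values, and the share of all genes so separated was not counted. Groups of 3 libraries were not searched for single outlying libraries.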

How the results depend on the processing

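The number of genes higher in WT RGCs stayed between 2680 and 4389 under all alternatives and between 2944 and 3678 without 1 library. The number of lower genes depended more on the settings: 724 at a fold change of at least 2, 2441 with no fold limit, 2389 when scaled by total reads, and 876 to 2029 without 1 library. Joint size factors gave 63.3% and total reads 55.2% of called genes higher, against 69.2%. The genes that differed between genotypes numbered 27 when scaled by total reads and 7 to 223 without 1 library. Over 148 genes named in the text and 15 alternatives, 788 of the values without 1 library and 1304 of the others kept their direction and their side of the threshold, while 85 and 16 lost the call, 13 and 9 gained it, and 2 and 1 changed sign, namely Pax6, which ran from -0.15 to 0.04 without 1 library, Hspa1a, which ran from -1.19 to 2.08 without 1 library, and Sox4 at -0.09 when scaled by total reads. Where no value shows the cause of a change, the cause was not tested. No paired analysis was possible because the deposited tables hold means and the recovered libraries carry no replicate number. Reads per library bound the folds of the genes near 0 in one fraction.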

Other observations

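Of 24 immediate early genes, which cells switch on with activity or stress, 5 were called higher and 0 lower by limma, a share close to the 22.4% of all genes called higher (median log2 fold change 0.08), while 8 had an unadjusted p under 0.05. Npas4, a factor induced by calcium entry in neurons, stood at 2296, 2214 and 1815 in RGCs and at 274, 346 and 254 in non-RGCs (log2 fold change 2.86 ± 0.15, adjusted p = 1.66e-05), and the nuclear receptor Nr4a1 at 3160, 3108 and 2455 against 1236, 1282 and 844 (1.39 ± 0.18). Fosl2 (2.91) and Nr4a3 (2.42) were also higher, but both lost their call without RGC library A. Egr1, which many cells induce, stood at 2962, 3543 and 3855 against 3595, 4239 and 4252 (-0.23 ± 0.12). The heat shock gene Hspa1a, named after its values were seen, stood at 451, 664 and 105 against 676, 773 and 7.31, with library C the lowest of both fractions. Without RGC library A 2 of the 24 genes were called higher, and without RGC library C 4 were called lower.

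Genes of tissues around the retina were low and mostly not called. Of 9 pigment cell genes tested, only Best1 was higher in RGCs (2.08), a share under the 22.4% of all genes. Another 3 were lower, Pmel (-1.23) among them, against 9.99% of all genes. The lower genes numbered 5 without RGC library C or non-RGC library C, and 1 without non-RGC library B. Of 6 tested kidney genes only Lrp2 (-0.96), which the eye also expresses, was called. Of 7 tested lens genes 2 were higher, a share near the 22.4% of all genes. The summed level of the whole lens list was 180 to 271 in RGCs and 79.4 to 153 in non-RGCs. Of 7 tested erythroid genes limma called 0, with 1 at an unadjusted p under 0.05, and the summed level was 147 to 159 in RGCs and 147 to 230 in non-RGCs. Of 6 tested bipolar cell genes 1 was higher, Gabrr1, by at least 10.9-fold, and 2 were lower.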
